A study of Mus musculus with 6 samples.

Results

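The genes described here are 10 core and output genes of the circadian clock, chosen by name among the 55487 genes of the deposited count table: Arntl, Clock, Per1, Per2, Per3, Cry1, Cry2, Nr1d1, Nr1d2 and Nfil3. Each was matched to 1 gene identifier through the GENCODE M21 symbols, and all 10 passed the filter on low counts that left 15774 genes for testing. They were measured by RNA-seq in neutrophils sorted from mouse lung as Ly6G-positive cells. The 3 mutant libraries came from mice with loxP-flanked Tgfbr2, the type II receptor gene of TGF-beta, and a Cre transgene under the S100A8 (Mrp8) promoter, which is active in neutrophils and their precursors. The 3 wt libraries came from Cre-negative littermates that carried the same loxP-flanked alleles, so both groups are floxed and differ in the presence of the transgene. The transgene also encodes EGFP, and the floxed allele came from the strain B6;129-Tgfbr2tm1Karl/J. The comparison asks whether lung neutrophils transcribe the clock genes at other levels when Tgfbr2 is targeted. The sources used here give no age or sex of the mice and no hour at which lungs were collected.

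In the mammalian clock the transcription factors BMAL1 (encoded by Arntl) and CLOCK bind E-boxes together and activate the Per, Cry and Nr1d genes. PER and CRY proteins then inhibit BMAL1 and CLOCK, while the nuclear receptors REV-ERB alpha and beta (Nr1d1 and Nr1d2) repress Arntl and Nfil3 through ROR response elements. NFIL3 in turn represses genes with D-boxes, which the activators DBP, TEF and HLF bind in competition with it. In neutrophils the clock is known to time the daily change from freshly released to aged cells, in which signals through the chemokine receptor CXCR2 take part.

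Promoter stretches are shown for 6 genes whose windows hold motifs that these roles name. RefSeq windows on GRCm38.p6, from 250 bases before to 50 after an annotated start, were found for 9 of the 10 genes (13 windows). Each window was searched on both strands for the E-box CACGTG, the variant E-box CACGTT, the D-boxes TTATGTAA and TTACGTAA, the ROR element written as ANTAGGTCA, TNTAGGTCA, ANTGGGTCA or TNTGGGTCA, and the cAMP element TGACGTCA. In the stretches below, read 5′ to 3′ along the gene, capitals mark the matches, none of which overlap. Per1 (chr11:69098767-69098804, plus strand) has an E-box starting at -166 from the start site. Cry1 (chr10:85185093-85185149, minus strand) has an E-box at -60 and a variant E-box at -79, and Nr1d1 (chr11:98775384-98775421, minus strand) has a variant E-box at -28. Per3 (chr4:151044800-151044886, minus strand) has a pair of D-boxes, the first at -205. Arntl (chr7:113207523-113207560, plus strand) has a ROR element 28 bases after the start of its second window, and Nfil3 (chr13:52981027-52981067, minus strand) has one at -12 on the opposite strand.
Per1: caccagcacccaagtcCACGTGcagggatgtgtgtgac
Cry1: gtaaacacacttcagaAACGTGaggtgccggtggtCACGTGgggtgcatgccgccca
Nr1d1: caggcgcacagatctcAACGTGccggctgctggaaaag
Per3: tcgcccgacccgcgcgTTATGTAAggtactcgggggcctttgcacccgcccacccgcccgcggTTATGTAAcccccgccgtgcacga
Arntl: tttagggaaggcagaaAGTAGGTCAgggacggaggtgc
Nfil3: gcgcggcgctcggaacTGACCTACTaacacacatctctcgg

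The E-box was present in 2 of the 9 genes (Per1 and Cry1), in 2 of their 13 windows and in 7.15% of all 32851 windows. The variant E-box was present in 3 of the 9 (Cry1, Cry2 and Nr1d1), in 3 of the 13 windows and in 4.68% of all windows. The D-box was found in 1 gene, in 1 of the 13 windows and in 1.06% of all windows. The ROR element was found in 2 genes, in 2 of the 13 windows and in 3.2% of all. The cAMP element was found in 0 of the 9 genes, in 0 of the 13 windows and in 1.79% of all. These matches describe the letters of the windows and show neither binding nor use of a start site in these cells.

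Library totals ran from 30403494 to 35906780 counts, and CPM here are counts relative to the TMM-scaled total of their library. A gene with 3 counts was at 0.0829 to 0.102 CPM, a floor that reflects counting error alone. The neutrophil label was checked on 10 marker genes, whose sum was 15617 to 21056 CPM in mutants and 18421 to 19964 CPM in wt. Csf3r, the G-CSF receptor gene, stood at 7689 to 8111 CPM in mutants and 8042 to 9233 CPM in wt, and the calprotectin gene S100a8 at 966 to 1507 and 1687 to 1752 CPM. Ly6g, which encodes the sorted antigen, was at 14.4 to 33.6 and 19.3 to 35.2 CPM, and the granule gene Camp at 1.05 to 3.32 and 0.826 to 2.66 CPM. Of the 10 markers 7 had a negative log2 fold change and 3 (Mmp9, Ltf and Camp) a positive one, with a median of -0.12. Without mutant replicate 2, the highest mutant library for 9 of the 10, 9 were negative and the median was -0.50. Tgfbr2 itself stood at 176 to 205 CPM in mutants and 185 to 201 CPM in wt, and since the count covers all exons it does not check the deletion. Transcripts of other lung cells were present. The summed markers of alveolar macrophages were at 550.3 to 1147 CPM in mutants and 279 to 461 in wt (10 of 10 genes with a positive log2 fold change), most of it Chil3, which neutrophils also make. Fibroblast markers were at 633 to 1139 and 540 to 621 CPM (8 of 9 positive), and epithelial markers at 533 to 996 and 266 to 546 CPM (8 of 10 positive). Monocyte, endothelial, B and plasma cell, and T and NK cell marker sums overlapped between groups, and 0 markers of any list were at 0 in all libraries. Positive log2 fold changes were seen in 4 of 8, 0 of 8, 5 of 8 and 4 of 10 of their genes, in that order. Most of the monocyte sum, 4432 to 6691 CPM, was Nr4a1 at 3709 to 6020 CPM, so the sum mainly tracks that gene. In such bulk samples fewer cells of a type and less RNA per cell cannot be told apart.

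The clock genes spanned a wide range of levels. On the RPKM scale, which divides CPM by the summed exon length in kb, Nfil3 came first in wt at 221 ± 27.3 (SD, n = 3), followed by Per1 at 156 ± 7.32. Only 1.45% of the tested genes had a higher mean RPKM than Nfil3, and 1.84% had a higher one than Per1. The next level, 11.7 times lower than Per1, was shared by Per2 at 13.3 ± 0.813 and Cry1 at 13.04 ± 1.42 RPKM. Nr1d1 followed at 5.48 ± 1.30, Cry2 at 2.26 ± 0.440 and Nr1d2 at 1.51 ± 0.570 RPKM. The activators were low: Clock stood at 0.968 ± 0.172 and Arntl at 0.529 ± 0.263 RPKM, and Per3 was last at 0.418 ± 0.267 RPKM.

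Neighbours in this order were not all distinct. In wt the ranges of Per2 and Cry1, Cry2 and Nr1d2, Nr1d2 and Clock, Clock and Arntl, and Arntl and Per3 overlapped, whereas Nfil3 and Per1, Per1 and Per2, Cry1 and Nr1d1, and Nr1d1 and Cry2 did not. In mutants Nfil3, at 165 ± 17.2 RPKM, and Per1, at 145 ± 10.7 RPKM, overlapped, and Cry1 at 12.4 ± 1.79 came before Per2 at 9.25 ± 1.24 RPKM.

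**Figure D1:**
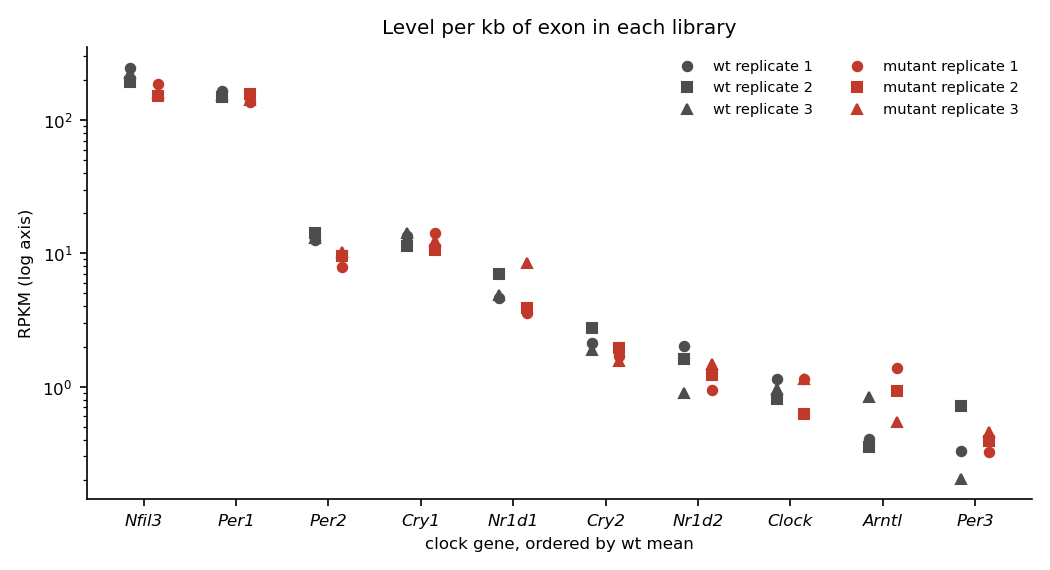
Level of each clock gene in RPKM (vertical, log axis) in the 6 libraries, with genes ordered by their wt mean; grey points are wt and red points mutant libraries, and the marker shape gives the replicate. Nfil3 and Per1 lie at 137 RPKM or above in every library, while Arntl, Clock and Per3 lie between 0.205 and 1.39.

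Within each family 1 paralogue made up most of the signal. Per1 held 92.9% to 94.4% of the summed RPKM of the 3 Per genes in mutants and 90.9% to 92.6% in wt. Cry1 held 84.5% to 89.4% of the Cry signal in mutants and 80.6% to 88.2% in wt. Nr1d1 held 76.2% to 85.0% of the Nr1d signal in mutants and 69.4% to 84.3% in wt. The Cry and Nr1d shares overlapped between groups, and the Per1 share did not, with 92.9% as the lowest mutant and 92.6% as the highest wt value. Per1 itself overlapped between groups, and Per2, a part of the sum, was lower in every mutant library than in every wt library.

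The mutant and wt libraries were compared gene by gene with edgeR's quasi-likelihood test, adjusted over all 15774 tested genes. None of the 10 clock genes passed an adjusted p of 0.05: 0 were called higher (0.00634% of all tested genes were) and 0 lower (0% were). At an unadjusted p under 0.05 edgeR had 2 lower, Per2 and Nfil3, and 0 higher, against 3.22% of all tested genes lower and 3.51% higher. DESeq2's Wald test called 1 of the 10, Per2, lower and 0 higher (0.469% and 0.514% of genes with a DESeq2 adjusted p were called lower and higher), and limma-voom called 0 (0% and 0.00634% of all). The sign of the log2 fold change was positive in 2 of the 10 and negative in 8, and their median was -0.10 against 0.01 for all tested genes, of which 50.7% were positive. Leaving out either mutant replicate 3 or wt replicate 3 gave a median of -0.27, with 1 positive and 9 negative genes, and 4 were positive and 6 negative without mutant replicate 2.

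**Figure D2:**
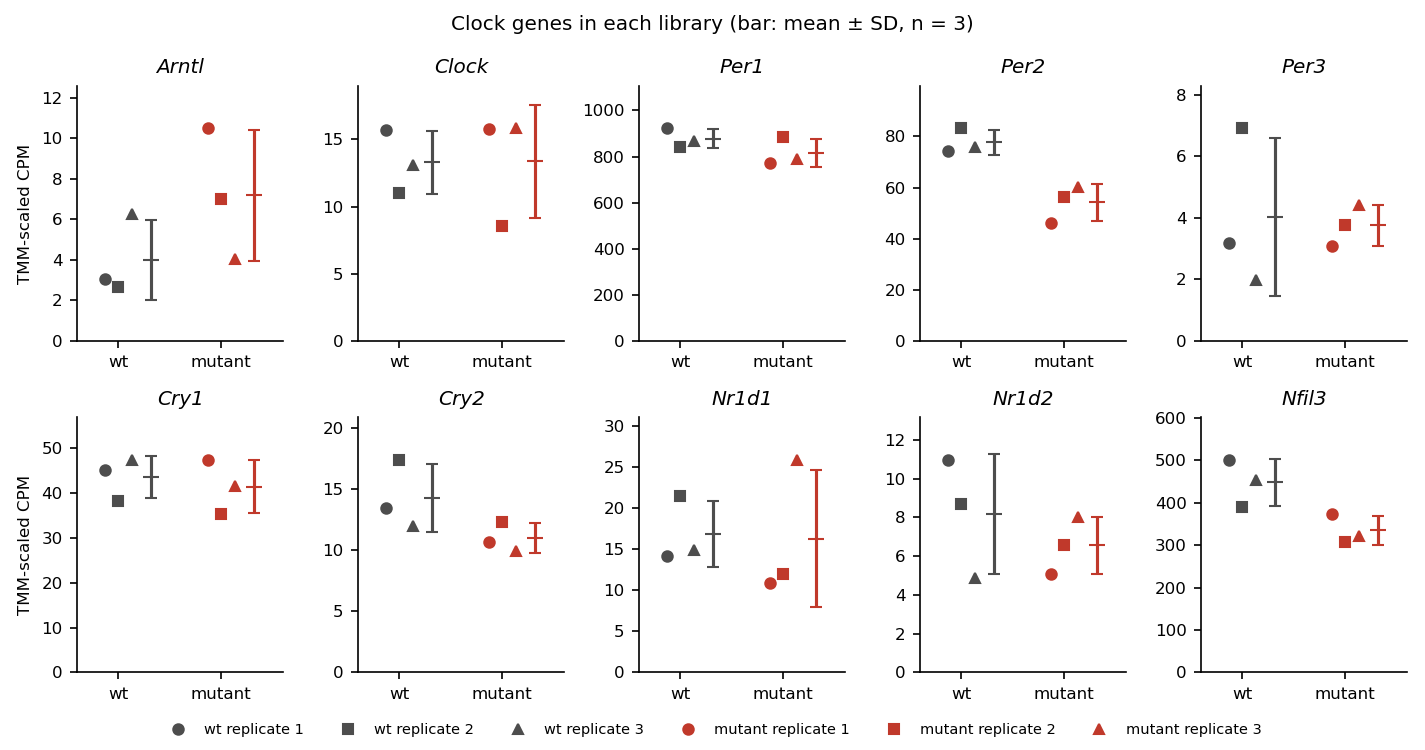
TMM-scaled CPM of each clock gene (vertical axes from 0, a scale of its own per gene) in the wt (grey) and mutant (red) libraries; points are single libraries with the marker shape giving the replicate, and bars are the mean ± SD (n = 3). Per2 and Nfil3 are the genes in which every mutant library lies below every wt library.

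Among the repressors of the loop, Per2 (ENSMUSG00000055866.9, chromosome 1, 91415982 to 91459324 in GRCm38, minus strand), whose protein joins CRY in inhibiting BMAL1 and CLOCK, stood at 46.1, 56.3 and 60.1 CPM in mutant replicates 1 to 3 and at 74.1, 83.1 and 75.8 CPM in wt replicates 1 to 3. All 3 mutant libraries lay below all 3 wt libraries, which was the case for 6.21% of the tested genes. The means of 54.2 ± 7.26 and 77.7 ± 4.76 CPM (SD, n = 3 per group) put wt 1.43 times above mutant. The estimated log2 fold change of -0.52 had a standard error of 0.13 and a 95% interval of -0.82 to -0.22. The adjusted p was 0.369 by edgeR and 0.0412 by DESeq2's Wald test, so the call depends on the tool. With 1 library left out the log2 fold change stayed between -0.60 and -0.41, with an adjusted p of 0.463 to 0.725 by edgeR.

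Per1 (ENSMUSG00000020893.17, chromosome 11, 69095217 to 69109960), the paralogue that is also an immediate early gene, was the steadiest of the 10 among libraries. It stood at 773, 885 and 790 CPM in mutants and at 922, 841 and 870 CPM in wt. The groups overlapped, and the log2 fold change of -0.10 had a 95% interval of -0.31 to 0.10 (adjusted p = 0.934, edgeR). The highest library was 1.19 times the lowest, against 3.97 times for Arntl and 3.51 times for Per3. Per3 (ENSMUSG00000028957.12, chromosome 4, 151003652 to 151044665), the Per gene that the loop needs least, was at 3.10, 3.76 and 4.43 CPM in mutants and at 3.19, 6.90 and 1.97 CPM in wt. Its wt libraries spanned the mutant ones, its log2 fold change of -0.10 had an interval of -1.13 to 0.94, and the value turned to 0.55 without wt replicate 2.

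The cryptochromes Cry1 and Cry2 encode the repressors that bind BMAL1 and CLOCK together with PER. Cry1 (ENSMUSG00000020038.10, chromosome 10, 85131700 to 85185064) was at 47.4, 35.4 and 41.5 CPM in mutants and at 45.2, 38.2 and 47.3 CPM in wt, with groups that overlapped almost entirely (log2 fold change -0.07, 95% interval -0.42 to 0.28). Cry2 (ENSMUSG00000068742.11, chromosome 2, 92403646 to 92434043) was at 10.7, 12.3 and 9.93 CPM in mutants and at 13.4, 17.4 and 12.0 CPM in wt. Here 1 mutant library lay above the lowest wt library by a small margin, and the log2 fold change of -0.38 had an interval of -0.87 to 0.11 (adjusted p = 0.842, edgeR). The transcript D930015M05Rik on the opposite strand shares 295 exon bases with Cry2 and was at 0 to 0.237 CPM.

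In the activating limb, Arntl (ENSMUSG00000055116.8, chromosome 7, 113207465 to 113314126, plus strand) was at 10.5, 6.98 and 4.06 CPM in mutants and at 3.05, 2.64 and 6.25 CPM in wt. Wt replicate 3 lay above mutant replicate 3, so the groups overlapped. The mean ratio of mutant over wt was 1.80, and the log2 fold change of 0.85 had a standard error of 0.44 and an interval of -0.13 to 1.83 (adjusted p = 0.799, edgeR). The value was 0.47 without mutant replicate 1, 1.13 without mutant replicate 3 and 1.33 without wt replicate 3, with edgeR adjusted p values of 0.652 to 0.987 whichever library was left out. An antisense transcript, Gm45355, shares 33 exon bases with Arntl and was at 0 to 0.0938 CPM. Its partner Clock (ENSMUSG00000029238.11, chromosome 5, 76209868 to 76304792) was at 15.8, 8.54 and 15.8 CPM in mutants and at 15.7, 11.0 and 13.1 CPM in wt. Its log2 fold change was 0.01 with an interval of -0.60 to 0.62, and it ranged from -0.13 without mutant replicate 3 to 0.24 without mutant replicate 2.

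In the REV-ERB limb, Nr1d1 (ENSMUSG00000020889.11, chromosome 11, 98767932 to 98775333, minus strand) was at 10.9, 12.0 and 25.9 CPM in mutants and at 14.2, 21.5 and 14.9 CPM in wt. Mutant replicate 3 alone lay above all wt libraries, and the 2 other mutant libraries lay below them. The log2 fold change was -0.05 (95% interval -0.79 to 0.68), and without mutant replicate 3 it was -0.56, with an edgeR adjusted p no lower than 0.879 in any of the fits with 1 library left out. Mutant replicate 3 also had the highest alveolar macrophage, epithelial and fibroblast marker sums of the 6 libraries, at 1147, 996 and 1139 CPM, and their part in its Nr1d1 level was not tested. The last exons of Nr1d1 overlap those of Thra, a thyroid hormone receptor gene on the opposite strand, over 263 bases (8.55% of the Nr1d1 exon length), and Thra had 57.8% of the CPM of Nr1d1. The library method does not mark strand, so reads in the shared stretch cannot be told apart. Thra stood at 11.1, 7.28 and 9.84 CPM in mutants and at 11.7, 11.1 and 6.50 CPM in wt and did not follow the high value of mutant replicate 3.

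Nr1d2 (ENSMUSG00000021775.11, chromosome 14, 18204054 to 18239127) was at 5.09, 6.57 and 8.03 CPM in mutants and at 11.0, 8.72 and 4.88 CPM in wt. The groups overlapped through wt replicate 3, and the log2 fold change was -0.32 (95% interval -1.07 to 0.43). It ranged from -0.59 without wt replicate 3 to -0.05 without wt replicate 1.

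The output gene Nfil3 (ENSMUSG00000056749.7, chromosome 13, 52967209 to 52981073, minus strand), a repressor of D-box genes that is also needed for several lymphoid lineages, was at 374, 308 and 322 CPM in mutants and at 501, 390.4 and 454 CPM in wt. All mutant libraries lay below all wt libraries, with 374 against 390.4 CPM at the closest. The means of 335 ± 34.9 and 448 ± 55.4 CPM (SD, n = 3 per group) put wt 1.34 times above mutant. The estimated log2 fold change of -0.42 had a standard error of 0.12 and an interval of -0.69 to -0.15, and the adjusted p stood at 0.444 by edgeR and 0.0651 by DESeq2's Wald test. With 1 library left out it stayed between -0.51 and -0.33. The alveolar macrophage and fibroblast marker sums separated the same groups in the other direction, and their part in the Per2 and Nfil3 values was not tested.

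**Figure D3:**
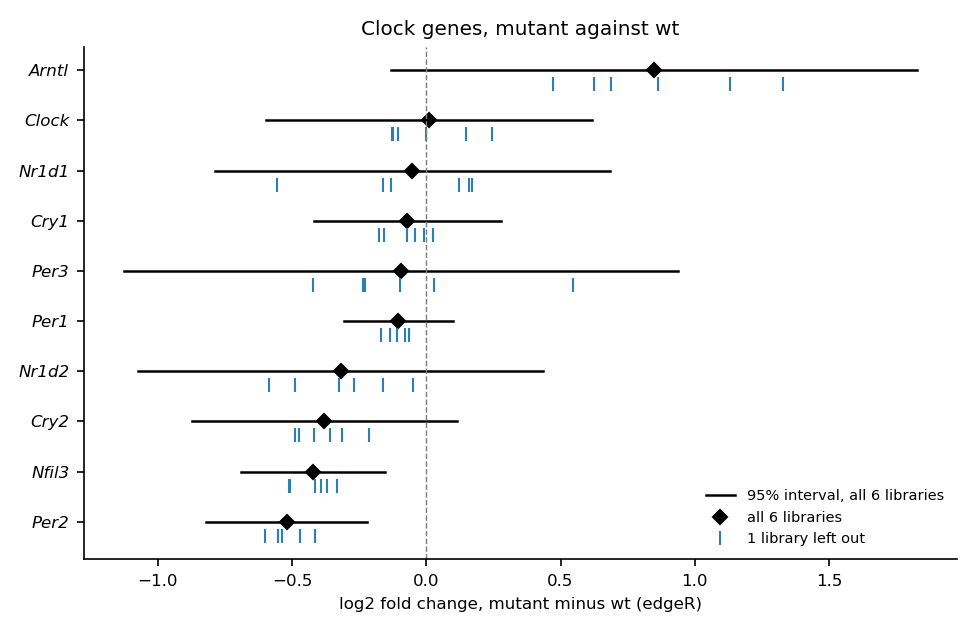
Log2 fold change of each clock gene, mutant minus wt (horizontal axis); diamonds and lines are the edgeR estimate and its 95% interval from all 6 libraries, and blue ticks are the 6 estimates with 1 library left out. The unadjusted intervals of Per2 (-0.82 to -0.22) and Nfil3 (-0.69 to -0.15) lie below 0, and those of the 8 other genes include 0.

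In the clock of most tissues Arntl peaks when the Nr1d and Per genes are low, so the libraries were also compared by how these genes varied together. Over the 6 libraries, on log2 CPM, 8 of the 9 correlations with Arntl were negative, from -0.86 to 0.27, whereas of all 45 pairs 22 were negative and 23 positive. The 9 correlations share the Arntl values and include the difference between groups, so their signs are not separate observations. The pair Arntl and Nr1d2 had Pearson's r = -0.86 (exact permutation p = 0.0347, two-sided) and Spearman's rho = -0.77 (exact permutation p = 0.103). Adjusted over the 45 pairs its p was 0.773 for r and 0.769 for rho. Arntl and Per2 had r = -0.81 (exact permutation p = 0.0569) and rho = -0.83 (exact permutation p = 0.0583), and Arntl and Nr1d1 had r = -0.70 and rho = -0.71 (exact permutation p = 0.136 for each), all with the same adjusted values. None of the 45 pairs passed after adjustment, 1 had an unadjusted exact permutation p under 0.05, and the smallest p that 720 pairings allow is 0.00139.

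The pair Arntl and Nr1d2 was singled out after its values were seen. Without the 2 libraries farthest from the median Arntl level its r was -0.88, whereas that of Arntl and Per2 was -0.35 and that of Arntl and Nr1d1 -0.39. Leaving out extreme Arntl levels narrows their range, which can shrink r by itself. The smaller values therefore do not show what those relations rest on. On deviations from the group means r was -0.89 for Nr1d2, -0.77 for Nr1d1 and -0.75 for Per2, with adjusted permutation p values of 0.366, 0.423 and 0.423. These permutations ran over all 720 pairings without regard to group, so for deviations they are not exact. For the remaining pairs with Arntl r on deviations was -0.78 (Per3), -0.36 (Cry2), -0.04 (Per1), -0.01 (Clock), 0.46 (Nfil3) and 0.55 (Cry1). Mutant replicate 1 had the highest Arntl level (10.5 CPM) together with the lowest Per2 (46.1 CPM) and Nr1d1 (10.9 CPM) levels of the 6 libraries, and wt replicate 2 had the lowest Arntl (2.64 CPM) with the highest Per2 (83.1 CPM).

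**Figure D4:**
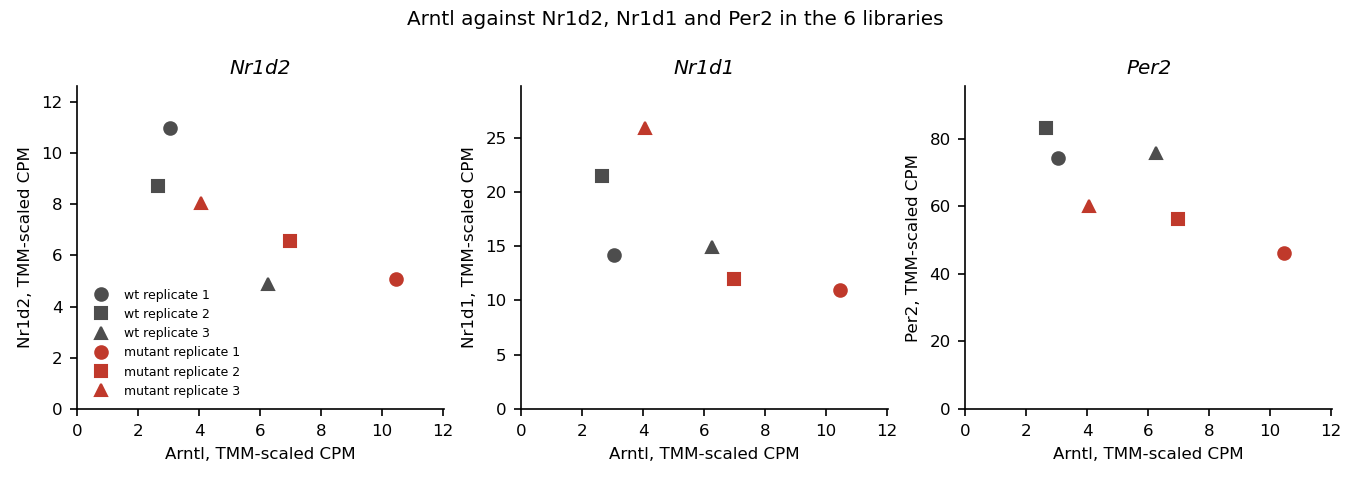
TMM-scaled CPM of Nr1d2, Nr1d1 and Per2 (vertical, left to right) against Arntl (horizontal) in the 6 libraries, wt in grey and mutant in red, with the marker shape giving the replicate. The points fall from upper left to lower right in each panel (r = -0.86, -0.70 and -0.81 on log2 CPM), and none of these relations passed after adjustment over 45 pairs.

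For Per2 and Nfil3 the genes most alike over the 6 libraries were taken from the 6909 other genes that averaged 10 CPM or more, by Pearson's r of log2 CPM. Those nearest to Per2 were Nek8 (r = 0.99), Adipor2 (0.99) and Tmx4 (0.97), a NIMA-related kinase, an adiponectin receptor and a thioredoxin-related membrane protein. Those nearest to Nfil3 were Ndrg1 (0.99), Mysm1 (0.98) and Card10 (0.98). These values describe 6 points, were chosen as the highest of many and carry no test.

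Outside the 10 genes, 32 further clock regulators and outputs were examined, of which 30 were tested. In edgeR 0 of them were called and 0 had an unadjusted p under 0.05, and the log2 fold change was above 0 in 15 and below 0 in 15 (median 0.01), against 0.01 for all tested genes. DESeq2 and limma-voom also called 0. The D-box activators that compete with NFIL3 were all low. Dbp was at 0.276, 3.63 and 3.66 CPM in mutants and at 1.41, 1.75 and 1.56 CPM in wt. Tef was at 6.36, 5.08 and 5.72 against 6.01, 2.18 and 4.63 CPM, and Hlf at 3.46, 1.19 and 2.03 against 0.854, 0.991 and 2.13 CPM. All 3 overlapped between groups (adjusted p of 0.919 to 0.954, edgeR).

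Rora and Rorb encode activators that oppose REV-ERB at ROR response elements. The stretches of Arntl and Nfil3 printed above match the letters of that element and show no binding. Rora was at 14.2, 6.34 and 12.4 CPM in mutants and between 8.97 and 9.71 CPM in the 3 wt libraries, and the mutant libraries lay on both sides of wt. Rorb did not pass the filter, with counts in 1 mutant library alone.

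The 4 other listed genes with the smallest p were Bhlhe41, Prkaa1, Bhlhe40 and Ciart, and none passed. Bhlhe41 and Bhlhe40 encode the repressors DEC2 and DEC1, which occupy E-boxes. Bhlhe41 was at 3.70, 2.47 and 3.57 CPM in mutants and at 2.23, 1.59 and 1.28 CPM in wt, groups that did not overlap, with a log2 fold change of 0.93 and a standard error of 0.43 (adjusted p = 0.759, edgeR). Bhlhe40 was higher in level, at 90.7, 87.0 and 121 CPM in mutants and at 80.1, 97.5 and 77.2 CPM in wt, and overlapped. Ciart encodes CHRONO, another repressor of BMAL1 and CLOCK, and was at 7.66, 6.67 and 6.18 CPM in mutants and at 5.88, 5.12 and 4.78 CPM in wt, again without overlap (log2 fold change 0.38, adjusted p = 0.892, edgeR). The alveolar macrophage and fibroblast marker sums separated the groups in the same direction as Bhlhe41 and Ciart. Their part in the values of these genes was not tested. Prkaa1, a catalytic subunit of the kinase AMPK, which marks CRY for degradation, was at 61.7, 36.4 and 59.5 CPM in mutants and at 65.9, 63.7 and 69.9 CPM in wt. The groups of Prkaa1 did not overlap either (log2 fold change -0.34, adjusted p = 0.820, edgeR). Of the 30 genes 2 lay without overlap on the higher side and 1 on the lower, against 6.82% and 6.21% of all tested genes.

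**Figure D5:**
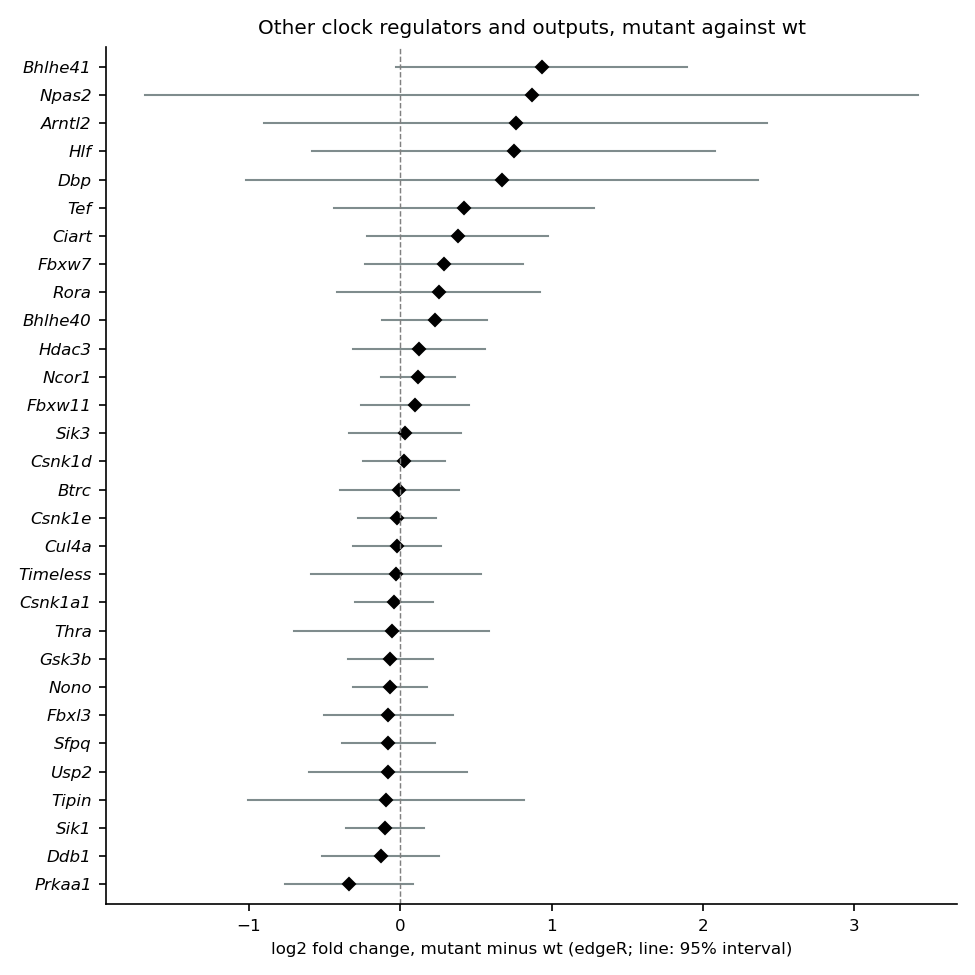
Log2 fold change, mutant minus wt (horizontal axis), of the 30 tested genes of the wider clock list, as edgeR estimates (diamonds) with 95% intervals (lines), ordered by value. All intervals include 0, and the widest belong to genes with few counts such as Npas2.

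A pair of further lists concern neutrophil traits and signals tied to the clock. Of 10 genes of the diurnal neutrophil programme edgeR called 0, the median log2 fold change was 0.03, and the unadjusted p was under 0.05 for 1 higher gene, Icam1, and 1 lower gene, Cxcr2, against 3.51% and 3.22% of all tested genes. Cxcr2, the chemokine receptor gene named above, was at 1991, 2136 and 1946 CPM in mutants and at 2623, 2475 and 2605 CPM in wt (adjusted p = 0.294 by edgeR and 0.0161 by DESeq2). Icam1, an adhesion molecule gene, was at 247, 224 and 310 CPM in mutants and at 186, 170.1 and 194 CPM in wt (0.370 and 0.0338). Its highest library, mutant replicate 3, also had the highest alveolar macrophage, epithelial and fibroblast marker sums. Their part in the Icam1 values was not tested. DESeq2 called Icam1 higher and Cxcr2 lower (0.514% and 0.469% of genes with a DESeq2 adjusted p), and limma-voom called 0. Cxcl2, the CXCR2 ligand gene that BMAL1 is known to drive in neutrophils, was named after its values were seen and stood at 1588, 1905 and 1238 CPM in mutants and 1729, 1651 and 1374 CPM in wt, which overlapped.

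Glucocorticoids, which carry the daily signal to many tissues, are known to induce Per1 and Per2. A list of glucocorticoid-induced genes, which also holds the receptor gene Nr3c1 (log2 fold change 0.04), had 13 tested members. Of these edgeR called 0, and the median log2 fold change was -0.14. The unadjusted p was under 0.05 for 4 lower and 0 higher genes (3.22% and 3.51% of all tested genes). DESeq2 called 2 lower (0.469% of all) and limma-voom 0. With 1 library left out the median ranged from -0.23, without mutant replicate 3 or wt replicate 3, to -0.10. The weakest value came without wt replicate 1, with 6 positive and 7 negative genes. The 4 genes, Fkbp5, Tsc22d3, Ddit4 and Cebpd, were also the 4 whose mutant libraries all lay below wt (6.21% of all tested genes). The pair with the smallest p is given in full. Fkbp5, a co-chaperone of the glucocorticoid receptor, was at 23.7, 41.8 and 32.7 CPM in mutants and at 88.3, 61.2 and 50.7 CPM in wt (log2 fold change -1.03, standard error 0.24, adjusted p = 0.304 by edgeR and 0.00564 by DESeq2). Tsc22d3, which encodes GILZ, was at 1549, 1463 and 1772 CPM in mutants and at 2521, 1959 and 2137 CPM in wt (-0.47, standard error 0.11, 0.305 by edgeR and 0.0202 by DESeq2). In both genes, as in Per2 and Nfil3, every mutant library lay below every wt library, which was the case for 6.21% of all tested genes. Per1 overlapped between groups. So did the other tested genes of the list, at log2 fold changes of -0.49 to 0.23. Whether Per2 and Nfil3 varied with Fkbp5 and Tsc22d3 beyond the group difference was not tested.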

How the data were processed

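RNA-seq libraries of 3 mutant and 3 wt samples of Ly6G-positive lung neutrophils were made by SMART-Seq v2, which does not mark strand, and Nextera XT, per the labels' protocols. The authors deposited whole-number read counts per gene, made with STAR and featureCounts on GRCm38 per the submitters' processing notes, without a version or a strand setting. A count pools all exons of a gene, per the file headers. Symbols came from GENCODE M21 (55094 identifiers matched exactly, 300 without their version, 93 not). In R 4.3.3, filterByExpr of edgeR 4.0.16 (minimum count 10) left 15774 genes, TMM set library factors of 0.972 to 1.03, and the quasi-likelihood test compared the groups with Benjamini-Hochberg adjustment over these genes. The procedure was tested on simulated data. It called 14% of the genes set to differ 1.5-fold, and 24.1% of those averaging 10 CPM or more. At 2-fold the shares were 34% and 77.3%, and at 4-fold 74% and 100%. Of 15574 genes left equal 6 were called. Differences under 1.5-fold, such as those of Per2 and Nfil3, were not tried. A standard error is the estimate over the square root of F. Log2 CPM for correlations used a prior count of 2. Alternatives were DESeq2 1.42.0, limma-voom 3.58.1, other scalings and filters, and leaving out each library.

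The clock genes and all lists were chosen with earlier results of these data known, and 1 listed gene is not reported here. Named genes are the 10 clock genes; of the wider list the PAR bZIP (Dbp, Tef, Hlf) genes, Rora, Rorb and the 4 others with the smallest p; of the diurnal and glucocorticoid lists the 2 with the smallest p; genes sharing exon bases with a clock gene; and the 3 genes most alike to each clock gene with an unadjusted p under 0.05. The labels do not tie each library to 1 mouse, so p-values reflect how these libraries vary, which may be technical. Replicate numbers follow accession order and pair nothing.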

Additional observations from a re-analysis of the deposited data

How the results depend on the processing

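Over all tested genes edgeR called 1 higher and 0 lower, DESeq2's Wald test 81 and 74, edgeR with no filter on low counts 41 and 29, and edgeR on genes averaging 10 CPM or more 14 and 5. Leaving out 1 library gave 0 to 1 in each direction. Of 117 recomputed log2 fold changes of the 10 clock genes, 104 kept their direction and their side of the threshold, 12 changed sign and 1 passed it, Per2 with DESeq2 (adjusted p = 0.0412). The sign changed for Clock with limma-voom (-0.0096) and within its range of -0.13 to 0.24 with 1 library left out (-0.12 and -0.13 without mutant replicates 1 and 3, -0.11 and -0.0020 without wt replicates 2 and 3), for Per3 with limma-voom (0.087) and within -0.42 to 0.55 (0.03 without mutant replicate 1), for Cry1 within -0.18 to 0.025, and for Nr1d1 within -0.56 to 0.17 (0.12 without mutant replicate 2, 0.16 without wt replicate 2). The cause was not tested. The median of the diurnal list ranged from -0.11 to 0.088 with 1 library left out. Of the correlations between clock genes 0 were called on deviations from the group means and 0 with library totals alone. Clock genes under 10 CPM (Arntl, Per3 and Nr1d2) have the widest intervals. No paired analysis was possible because the labels give no replicate numbers.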

Other observations

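The balance between NFIL3 and its D-box competitors was looked at after the single genes had been seen, and is given without a test. Summed over Dbp, Tef and Hlf the level was 1.42 to 2.25 RPKM in mutants and 1.01 to 1.43 RPKM in wt, ranges that overlapped. Nfil3 was 70.4 to 130.4 times that sum in mutants (mean 91.9 ± 33.4, SD, n = 3) and 157 to 191 times in wt (176 ± 17.4, SD, n = 3), and these ranges did not overlap. Nfil3 alone already lay lower in every mutant library, so the ratio is not a result separate from it. In mutant replicate 1 the ratio was 130.4 and Dbp had 10 reads. The alveolar macrophage and fibroblast marker sums lay higher in every mutant library than in every wt library. The part of such other cells in the low Dbp, Tef and Hlf levels, and so in the ratio, was not tested.

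Per1 exceeded Arntl 98.6 to 260.1 times per kb of exon in mutants and 186 to 425 times in wt, which overlapped. Of the wider clock list Ciart had the most E-boxes in its promoter window, 3, the first at -116 from the start (chr3:95882251-95882360 in GRCm38.p6, minus strand, RefSeq), with the matches in capitals.
Ciart: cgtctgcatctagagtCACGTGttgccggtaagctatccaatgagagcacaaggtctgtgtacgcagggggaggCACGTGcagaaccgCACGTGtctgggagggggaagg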
